A study of Mus musculus with 454 samples.

Results

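The HOX genes of vagal sensory neurons were taken by name: every gene symbol made of Hoxa, Hoxb, Hoxc or Hoxd and a number. The rule gave 39 members of the 36919 genes in the read table of hand-picked cells, and the same 39 of the 28001 genes of a droplet library. The rule uses no measured value.

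HOX genes encode homeodomain transcription factors that lie in 4 genomic clusters, Hoxa to Hoxd. Members with the same number form a paralogue group and descend from one ancestral gene. In the embryo the genes are switched on in order along each cluster, low numbers in the anterior hindbrain and high numbers towards the tail, so that a set of active members marks a position along the body axis. The proteins bind DNA together with cofactors of the PBX, MEIS and PKNOX families, and retinoic acid helps to open the clusters. The cell bodies of vagal sensory neurons sit in the nodose ganglion, whose neurons come from placodes, and in the fused jugular ganglion, whose neurons come from the neural crest.

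All cells came from the nodose ganglion of wild-type mice of the strain C57BL/6, with no treatment stated. The hand-picked cells, from mice of 8 to 12 weeks, were sequenced by Smart-seq2, a full-length method, and carry a mouse number and a target code in the table's own header lines: Port (8 mice in the comparisons), GastG (5), GastP (3), IntL (3), IntP (4), IntM (3) and IntD (3). The sources used here do not spell out the codes, which are kept as written. Gast stands here for GastG and GastP together, Int for the 4 Int codes. The mouse is the replicate, and the sources used here do not say how the cells of a code were labelled. The droplet library is 1 pool of cells from mice aged 6 weeks, so its values have no replicate and no test.

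All but 3 picked cells passed a minimum of 2000 detected genes, and their median depth was 1617516 reads and 11389 genes. The comparisons used the 29 coded mice with at least 4 such cells, and left out 53 cells of 4 mice coded na. The droplet library held 1108 barcodes, of which 1087 were neurons (median 56119 UMIs, unique molecule counts) and 21 satellite glia-like cells (median 14919 UMIs). The markers of satellite glia summed to a median of 1563 CPM (reads scaled to a common library total) in Port mice, 881.5 CPM in Gast mice and 902 CPM in Int mice.

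Hoxb5 gave most of the HOX signal in both protocols, so its reads were checked for sequence shared with its relatives. Across its whole length, compared in the sense direction only, Hoxb5 shared 0% of its 50-base words with any other gene, as did Hoxb2, Hoxb3, Hoxc4 and Hoxd1. Hoxb4 shared 0.437% and Hoxb6 0.839%. Other overlaps limit some members. Antisense transcripts cover 52.9% of the exon bases of Hoxb3 and 27.3% of those of Hoxb2 (both by Hoxb3os). They also cover 3.59% of those of Hoxb5 (by Hoxb5os), 25.4% of those of Hoxa3 and 16% of those of Hoxa4. Neither the Smart-seq2 protocol in the labels nor the read table gives a strand, so those reads cannot be told apart. Hoxa2 shares 15% of its exon bases and Hoxa3 8% with another gene on the same strand. Hoxd3 shares 62.4% of its exon bases with other genes on its strand, mainly Hoxd4, and both are uncertain.

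Expression lay mostly in Hoxb2 to Hoxb6. Hoxb1, at the 3′ end of that cluster, had 1 UMI in droplet neurons and a read in 3 picked cells. In droplet neurons 63672 UMIs came from HOX genes, 97.3% of them from Hoxb and 68.3% from Hoxb5 alone. In picked cells the shares of HOX reads were 96.7% and 77%. A UMI was found for 20 members and 19 had none in 67714181 UMIs, which allows up to 0.0443 CPM each (3 counts). In picked cells 24 members had a read and 15 had none. The 15 members at 0 in both tables belong to paralogue groups 6 to 13, the trunk and tail part of the code.

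Droplet UMIs count 3′ ends and do not scale with transcript length. Hoxb5 (chromosome 11, 96303336 to 96306121, plus strand, GRCm38) stood at 642 CPM in droplet neurons (exact Poisson interval 636 to 648.5, counting error only). Hoxb4 followed at 99.7 CPM, Hoxb6 at 68.9, Hoxb3 at 59.6 and Hoxb2 at 44.4 CPM. Hoxc4, the first gene at the 3′ end of its cluster, reached 12.4 CPM. Hoxa4 had 3.29 CPM, Hoxa3 2.60 and Hoxd1 2.11 CPM, and 10 members in all had at least 100 UMIs. The remaining 10 members with a UMI ranged up to 1.36 CPM (Hoxa2). At least 1 UMI of Hoxb5 was found in 98.2% of neurons and in 33.3% of satellite glia (exact interval 14.6 to 57%). For Hoxb4 the shares were 92.5% of neurons and 23.8% of glia, and for Hoxb6 76% of neurons and 0% of 21 glia. After thinning each cell to 10000 UMIs, Hoxb5 was seen in 91.9% of neurons and 28.6% of glia. The barcodes with at most 100 UMIs, which hold free RNA, carried Hoxb5 at 477.5 CPM. A neuron held a median of 5 HOX genes and at most 11, and 3 neurons had none.

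In the picked cells, Hoxb5 had at least 10 reads in 99.8% of cells (exact Clopper-Pearson interval 98.8 to 99.99%) and Hoxb2 in 89.1%. Hoxb6 followed with 84.9%, Hoxc4 with 36.3% and Hoxb3 with 24.9%. These 5 members were the ones detected in at least 20% of cells, 12.8% of the 39, while 29.4% of all genes in the table reached that share. Hoxd1 was detected in 9.13% of cells and Hoxc5 in 7.13%. Per kilobase of exon, the mean level of Hoxb5 was 91.2 CPM, of Hoxb6 20.7, of Hoxb2 5.30 and of Hoxc4 2.16. Hoxb4, second in the droplet library, averaged 0.66 CPM per kilobase in picked cells and had 10 reads in 3.56% of them. The droplet method reads 3′ ends and the picked cells were read along whole transcripts, so the levels of 1 table are not set against those of the other.

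**Figure D1:**
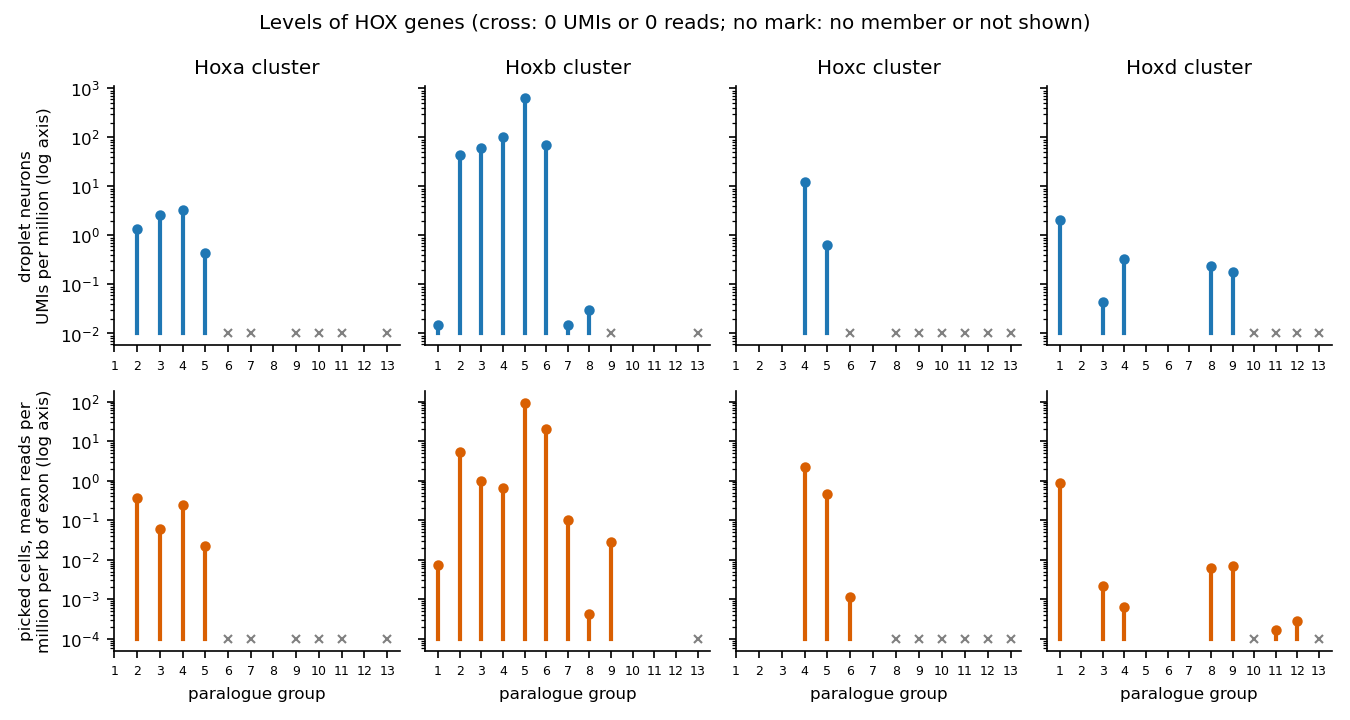
Levels of HOX genes by cluster and paralogue group, in CPM of UMIs in droplet neurons (top) and in mean CPM per kilobase of exon in picked cells (bottom), on log axes; crosses are members with no UMI or read, and a place with no mark has no member or is not shown. Hoxb5 is highest in both, at 642 CPM and 91.2 CPM per kilobase.

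A cluster of 47 droplet neurons was jugular-like by its markers: Prdm12, a transcription factor of crest-derived sensory neurons, and the receptor gene Gfra3 were among its leading genes. The comparison bears on neurons of crest and placode origin, and HOX genes were kept out of the clustering. The remaining 1040 neurons are called other neurons, because 5 of their 27 clusters were led by markers of other cell types. The label went by mean z scores of the marker lists over clusters, 3.66 for jugular-like markers in this cluster. Some clusters kept among the other neurons also scored higher on jugular-like than on nodose-like markers. Cluster 13 had 0.719 and -0.67, 16 had 0.61 and -0.336, 2 had 0.221 and -0.784, and 9 had -0.143 and -0.781. Jugular-like neurons had more UMIs of Hoxd1 and Hoxa3 for their depth and fewer of all 5 well-measured Hoxb members and of Hoxc4. The scarce and uncertain Hoxd4, with 22 UMIs in all neurons, was also higher. The 2 sides do not divide by paralogue group: Hoxb2 and Hoxb3 were among the lower members, and Hoxb4 and Hoxc4 share group 4 with Hoxd4.

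Hoxd1, the most anterior Hoxd gene, which in mouse is known from nociceptive sensory neurons, had 88 UMIs in 47 jugular-like neurons and 55 UMIs in 1040 other neurons. That is 25.8 CPM in jugular-like neurons and 0.855 CPM in other neurons, a ratio of 30.2 (exact counting interval 21.3 to 43.1). A UMI of Hoxd1 was found in 46.8% of jugular-like neurons, in 3.37% of other neurons and in 0% of glia. Only 2 picked cells were matched to the jugular-like cluster, and neither had a read of Hoxd1. Hoxd4 had 12 UMIs in jugular-like and 10 UMIs in other neurons (ratio 22.6, 8.96 to 58.5). Those 12 UMIs came from 10.6% of the 47 jugular-like neurons. With cells thinned to 10000 UMIs, Hoxd4 kept 1 UMI in jugular-like and 3 UMIs in other neurons (ratio 7.38, 0.14 to 91.9). Hoxd3 had 3 UMIs in jugular-like neurons and 0 in other neurons. Hoxa3, a gene of the caudal hindbrain, stood at 8.51 CPM in jugular-like and 2.29 CPM in other neurons (ratio 3.72, 2.41 to 5.57). For Hoxa4 the ratio was 1.76 (1.04 to 2.81).

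Hoxb5 ran the other way, with 260 CPM in jugular-like neurons and 663 CPM in other neurons (ratio 0.393, 0.367 to 0.419). Its level in jugular-like neurons lay above the 23.7 CPM of glia. Hoxb4 had 47.5 CPM in jugular-like and 102.5 CPM in other neurons (ratio 0.464), Hoxb6 35.8 and 70.6 CPM in the same order (0.507). The ratios of Hoxb3 (0.607) and Hoxb2 (0.616) were nearer to 1. Hoxc4 had the lowest ratio of the measured members, 0.298 (0.158 to 0.512), from 13 UMIs in jugular-like and 823 UMIs in other neurons. Of the 10 members with at least 100 UMIs, 2 (Hoxd1, Hoxa3) had a ratio of 2 or more, against 5.33% of the 12318 genes of that depth, and 3 (Hoxb4, Hoxb5, Hoxc4) a ratio of 0.5 or less, against 9.51%. Without the 5 clusters led by other markers, an alternative chosen after seeing the data, the counts were 2 and 4, as Hoxb6 stood at 0.468. With cells thinned to 10000 UMIs, 8 members passed, since Hoxb2, Hoxb3 and Hoxb6 fell below 0.5, and Hoxa4 turned to 0.651 on 1 UMI in jugular-like neurons. Thinned Hoxb2 had 9 UMIs in jugular-like neurons (ratio 0.40, 0.18 to 0.77), and Hoxb3 and Hoxb6 had 14 each. For neither alternative was the share of all genes past these limits computed. The single library gives no replicate for any of these ratios.

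**Figure D2:**
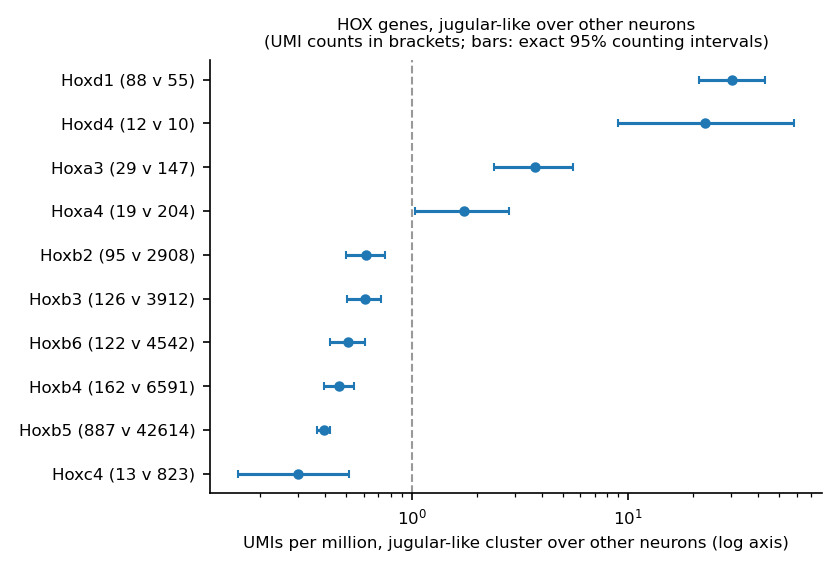
Ratio of the CPM of UMIs in the jugular-like cluster over the other neurons for 9 members with at least 100 UMIs and Hoxd4, on a log axis; bars are exact 95% counting intervals and the dashed line marks equal levels. Hoxd1 (30.2) and Hoxd4 (22.6) lie farthest to the right, Hoxc4 (0.298) and Hoxb5 (0.393) farthest to the left. Hoxd4 rests on 12 UMIs in jugular-like and 10 UMIs in other neurons.

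The promoters of Hoxc4 and Hoxd1, the members at both ends of that range, are shown because the letters of known HOX inputs can be looked up in them (RefSeq, GRCm38.p6; chr15:103034145-103034444 and chr2:74762730-74763029, both on the plus strand). Capitals mark AGGTCA, a binding element of retinoid receptors, on either strand.
Hoxc4: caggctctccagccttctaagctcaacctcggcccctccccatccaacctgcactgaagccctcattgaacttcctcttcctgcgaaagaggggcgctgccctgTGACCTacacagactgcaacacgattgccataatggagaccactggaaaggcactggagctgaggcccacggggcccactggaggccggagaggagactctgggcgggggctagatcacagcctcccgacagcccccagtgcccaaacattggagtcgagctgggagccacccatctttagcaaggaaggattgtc
Hoxd1: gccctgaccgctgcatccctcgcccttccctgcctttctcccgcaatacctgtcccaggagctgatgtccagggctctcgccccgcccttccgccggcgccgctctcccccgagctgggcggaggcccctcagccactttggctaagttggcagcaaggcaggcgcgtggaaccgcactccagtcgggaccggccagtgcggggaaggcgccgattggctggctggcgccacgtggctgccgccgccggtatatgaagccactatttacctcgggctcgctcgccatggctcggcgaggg
The Hoxc4 window held 1 match to AGGTCA and the Hoxd1 window 0; 16.3% of 32851 promoters of this length hold one, and 7 of the 24 HOX promoters in the table do. TGATNNAT, a joint HOX and PBX site, and TAATTA, a homeodomain core, were in neither window; 8.85% and 5.29% of all promoters hold them on either strand. The motifs do not overlap one another in these windows. A match is a run of letters and not a measured site.

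Among the 28 neuronal clusters of the droplet library each member had its own profile. Hoxb5 reached 1473 CPM in cluster 5, led by Uts2b and the cholecystokinin receptor gene Cckar, 1189 CPM in cluster 22, led by Vip, and 1001 CPM in cluster 27, led by Pdyn. It was lowest, 153.2 CPM, in cluster 24, whose median depth of 19115 UMIs was low and whose leading gene Sprr1a marks injury. Hoxb6 was highest in cluster 21 (led by Pappa2 and Slc18a3), closely followed by clusters 5 (141.9 CPM) and 4 (137.4 CPM, led by Gpr65 and Edn3), and lowest in cluster 13 (9.37 CPM, led by Lig1). Hoxb5 and Hoxb6 thus shared cluster 5 among their highest but differed in cluster 27, where Hoxb6 stood at 56.4 CPM.

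Hoxc4 was highest in clusters 12 (40.9 CPM, led by Cbln2), 7 (40.2 CPM, led by Rbp4) and 25 (33.1 CPM, led by the endothelial gene Cldn5), and had 0 UMIs in cluster 9. Hoxd1 was uneven: after the jugular-like cluster its summed level was highest in cluster 9 (13.6 CPM), with Slc17a7 and Piezo2 among its leading genes, but those 16 UMIs came from 10% of its 20 neurons, and both picked cells matched to cluster 9 had no read of it. Cluster 2, led by Sst and Ctxn3, followed (3.65 CPM), and Hoxd1 was at 0 in 12 clusters. Hoxb3 peaked in cluster 10 (144.3 CPM, with Prlr among its leading genes), followed by clusters 14 and 1 (106.7 CPM in cluster 1), and was lowest in cluster 16 (27.6 CPM). Hoxb2 had its highest level in cluster 26 (76.3 CPM) and its lowest in cluster 9 (13.6 CPM), and clusters 10 (74.8 CPM) and 0 (71.7 CPM) came next to the highest. Hoxb4 had the narrowest span of the members detected in every cluster, from 38.8 CPM in cluster 10 to 147.9 CPM in cluster 26, next to clusters 0 (137.2 CPM) and 17 (132.6 CPM).

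The Hoxa members were sparse. Hoxa4 was highest in cluster 21 (9.93 CPM), then in clusters 14 (9.63 CPM) and 25 (8.55 CPM), and Hoxa3 in the jugular-like cluster (8.51 CPM), then in clusters 12 (6.66 CPM) and 21 (6.47 CPM). Each of these had 0 UMIs in 4 clusters. For 8 of the 10 members, Hoxb2 and Hoxb4 being the exceptions, the highest cluster stood at 2 or more times the median cluster, while 52.1% of genes of that depth do so.

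**Figure D3:**
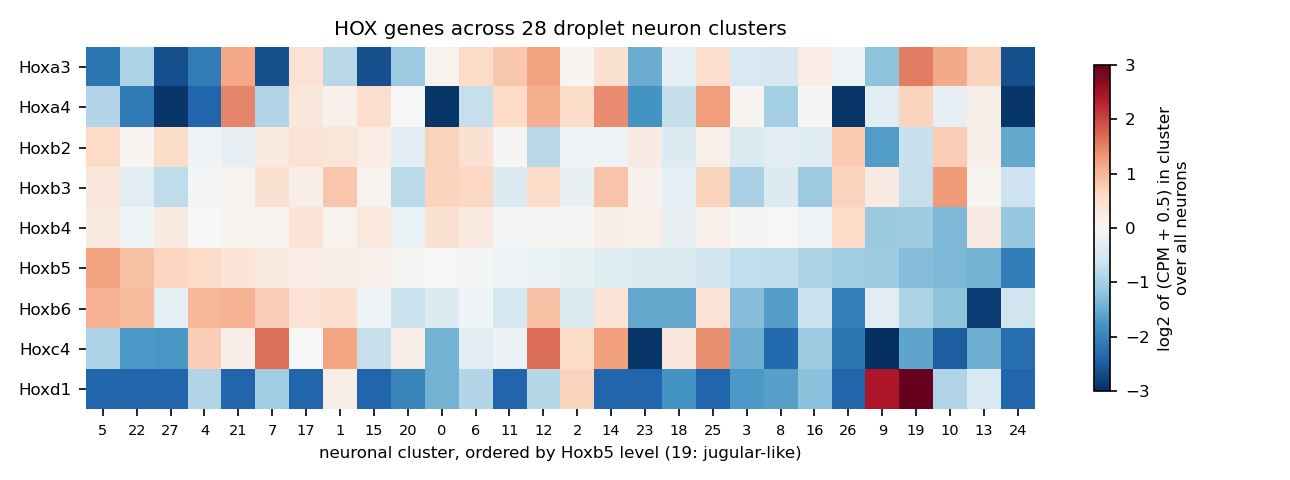
Log2 ratio of CPM plus 0.5 in each of 28 droplet neuron clusters over all neurons, for 9 members with at least 100 UMIs; columns run from the highest Hoxb5 level (cluster 5, 1473 CPM) to the lowest (cluster 24, 153.2 CPM). Hoxd1 is darkest red in clusters 19 (jugular-like) and 9, where 10% of 20 neurons carry the value of cluster 9, and Hoxb4 is the most even row.

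Picked cells allowed tests over mice. Gast cells had more Hoxd1 and less Hoxb5, Hoxb6 and Hoxc4 than Int cells, while Hoxb2 and Hoxb3 were not called. The values are the mean over a mouse's cells of log2(CPM + 1), which understates changes of low genes, and the test is limma with Benjamini-Hochberg adjustment over the 12705 genes with 10 reads or more in 5% of the cells. Of the 39 members 8 passed that filter, and 5 of them were called, against 14.8% of all genes tested. Of these, 2 were higher in Gast, against 9.04% of all genes, and 3 lower, against 5.72%. Hoxd1 passed the filter largely through Gast cells, the group where it is high. It reached 10 reads in 22.5% of cells in GastG and 26.7% in GastP, as means over mice. In the Int codes the share was 0% (IntM, IntD) to 4.17% (IntL), and in Port 9.63%. With 10 reads required in 20% of cells, 5 members were tested and the 3 called were all lower. On reads summed per mouse, edgeR and DESeq2 each called 4 members, 1 higher and 3 lower, against 14.9% and 17.2% of all genes. With TMM-scaled libraries limma again called 5 members, 2 higher and 3 lower. Over all genes its calls moved to 838 higher and 1012 lower in Gast, against 1148 higher and 727 lower without that scaling.

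Hoxd1 had mouse means of 0.39 at the lowest, 1.22 at the median and 1.89 at the highest over 8 Gast mice, and of 0, 0.15 and 0.85 over 13 Int mice. Of the Gast mice, only GastP mouse 44, at 0.39, lay below the highest Int mouse. The log2 difference was 1.07 (SE 0.18, limma adjusted p = 8.3e-05).

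Hoxb5 had 7.04, 7.60 and 7.84 in Gast mice and 7.86, 8.23 and 8.50 in Int mice. Every Gast mouse lay below every Int mouse, a separation in that direction that 0.323% of the genes tested showed. The log2 difference was -0.64 (SE 0.20, limma adjusted p = 0.0266). Leaving out GastP mouse 44 took the adjusted p to 0.105, while leaving it out together with Port mice 21, 22 and 27 gave 6.25e-05. Hoxb6, the neighbour of Hoxb5, had 3.61, 4.41 and 4.87 in Gast mice and 4.07, 5.09 and 6.03 in Int mice, where 9 of 13 Int mice lay above all Gast mice (difference -1.01, SE 0.25, limma adjusted p = 0.0054). Hoxc4 had 0.99, 1.64 and 2.24 in Gast mice and 1.43, 2.62 and 4.03 in Int mice (difference -0.97, SE 0.22, limma adjusted p = 0.00221). Every Gast mouse lay below the Int median for Hoxc4.

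The other Hoxb members and Hoxc5 were not called. Hoxb2 had medians of 4.38 in Gast mice and 4.17 in Int mice (difference 0.11, SE 0.21, limma adjusted p = 0.794). Hoxb3 differed by 0.01 (SE 0.20), and Hoxc5 by -0.18 (SE 0.19). Without the filter on low values, 24 members were admitted, and Hoxa2, Hoxa3 and Hoxa4 were also called higher in Gast mice. Hoxa2 was higher by 0.46 (SE 0.09, limma adjusted p = 0.0022), Hoxa3 by 0.45 (SE 0.06, limma adjusted p = 2.84e-05) and Hoxa4 by 0.37 (SE 0.10, limma adjusted p = 0.0122). In that fit 7 members were called, against 9.79% of 18521 genes, and Hoxb5 was not among them (limma adjusted p = 0.05005). These 3 Hoxa members are at low levels. Hoxa3 had at least 1 read in 45.4% of the cells of a Gast mouse on average and in 8.35% of those of an Int mouse, while 10 reads were reached in 2.5% of cells in Gast and 0.55% in Int.

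**Figure D4:**
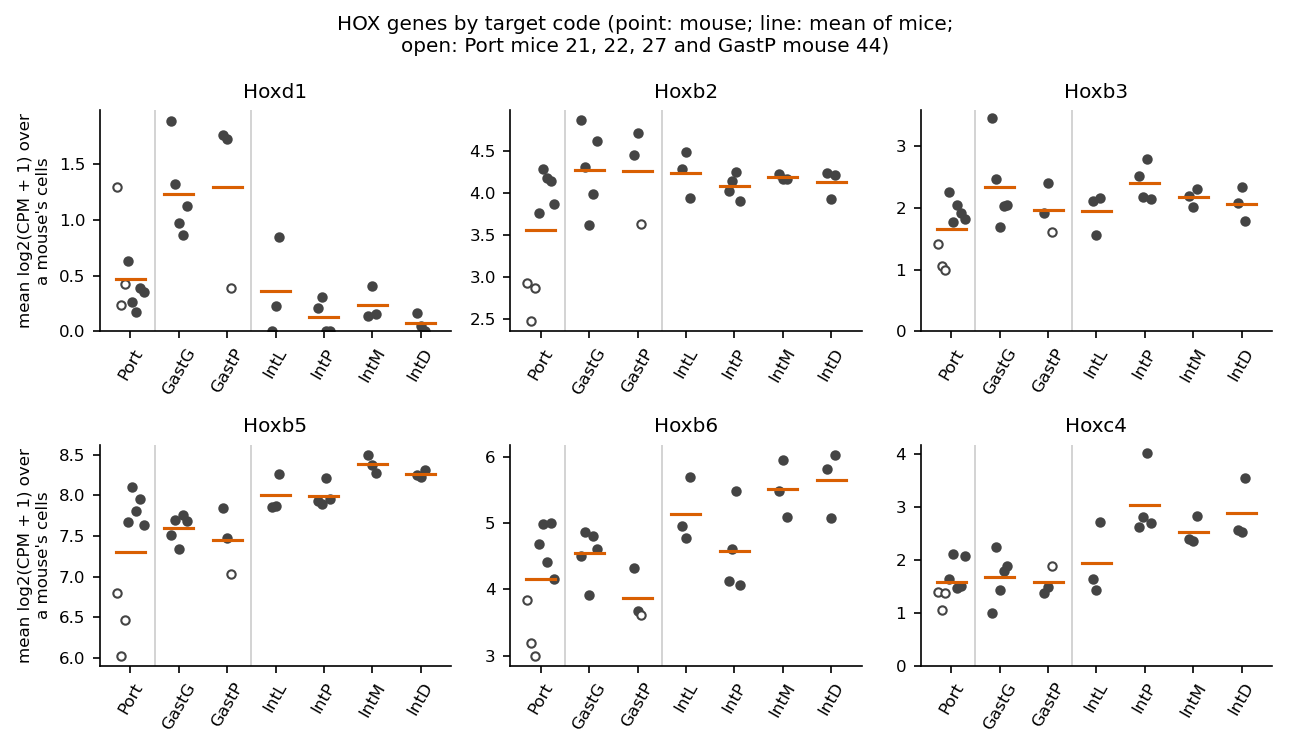
Mean log2(CPM + 1) over a mouse's cells for 6 HOX genes by target code; each point is a mouse, the orange line is the mean of the mice, and open points are Port mice 21, 22 and 27 and GastP mouse 44. Hoxd1 is higher in Gast than in Int mice, Hoxb5, Hoxb6 and Hoxc4 are lower, and the 3 open Port mice are the lowest for Hoxb5.

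Other lists moved with this contrast. Of the 6 nodose-like markers 3 were called lower in Gast mice (Htr3a by 5.29 on the log2 scale, Tbx3 and P2rx2) and 1 higher (Eya1), and their summed level ran between 540 and 3694 CPM in Gast mice, against 2533 and 8604 CPM in Int mice. Of the 5 jugular-like markers 4 were tested and 2 were called higher (Prrxl1 and Runx1); their sum ran between 246.6 and 509 CPM in Gast mice and between 186.5 and 367.7 CPM in Int mice. Of the 6 dissociation and injury genes 2 were called higher (Jun and Egr1), with sums between 501 and 2844 CPM in Gast mice and between 126.6 and 1083 CPM in Int mice. Over all genes limma called 14.8% in either direction. No marker of these 3 lists was at 0 in every mouse. Their part in the HOX differences was not tested. Gast mice are numbered 7 to 10 and 41 to 44 and Int mice 11 to 39, so they share no range of numbers. The part of the mouse number in the HOX differences was not tested either.

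Picked cells were next matched to droplet clusters by rank correlation over 604 leading genes, with HOX genes left out, a step added after seeing the data. Gast and Int cells fell on different types in unequal shares. Cluster 2, led by Sst and Ctxn3, took 42.9% of Gast cells and 2.96% of Int cells, and cluster 4, led by Gpr65 and Edn3, took 3.81% of Gast cells and 41.4% of Int cells. In the droplet library, where no target enters, these 2 clusters had unlike levels of the same members: Hoxd1 had 3.65 CPM in cluster 2 (16 UMIs) and 0.909 CPM in cluster 4 (4 UMIs), Hoxa3 2.74 and 0.227, and Hoxa4 5.03 and 0.227 CPM in the same order. Hoxb5 had 552 CPM in cluster 2 and 949 CPM in cluster 4, and Hoxb6 50.5 and 137.4 CPM. The levels of Hoxc4 were 18.3 CPM in cluster 2 (14.5 to 22.7) and 20.9 CPM in cluster 4 (16.9 to 25.6), with counting intervals that overlap. The counting intervals of Hoxd1 in these 2 clusters overlap as well.

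The same types also differed in picked cells. Hoxd1 reached 10 reads in 35 of the 80 cells matched to cluster 2 and in 0% of those matched to cluster 4, and 41 of all picked cells reached it. Within cells matched to cluster 2, the mean log2(CPM + 1) of Hoxd1 was 2.03 in 45 Gast cells from 8 mice and 2.71 in 5 Int cells from 3 mice. Within cells matched to cluster 4, Hoxb5 stood at 8.13 in 4 Gast cells from 3 mice and 8.39 in 70 Int cells from 13 mice. Other types differed in direction. In cluster 18, led by Dbh, 7 Gast cells from 6 mice lay below 34 Int cells from 9 mice. Hoxb5 was 7.09 against 7.68 there, and Hoxb6 2.59 against 3.76. In cluster 3, led by Trpa1, 7 Gast cells from 5 mice lay above 6 Int cells from 3 mice. Hoxb5 was 7.38 against 6.94 there, and Hoxb6 3.88 against 2.92. A fit on 80 mouse-by-type means with the type as a term called 0 of the 8 members between Gast and Int, with 1 of them at an unadjusted p under 0.05, and 0% of all genes. In that fit the log2 difference was -0.02 (SE 0.24) for Hoxd1, -0.33 (SE 0.24) for Hoxb5, -0.25 (SE 0.41) for Hoxb6 and 0.20 (SE 0.42) for Hoxc4. The SEs were larger than in the fit over whole mice for these 4 members.

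Over the 11 types with at least 10 picked cells, the levels of a member in the 2 protocols followed one another to different degrees. The Spearman correlation over types was 0.964 for Hoxb6, 0.918 for Hoxb5, 0.845 for Hoxb3, 0.782 for Hoxb2 and 0.736 for Hoxc4. It was 0.336 for Hoxd1, 0.536 for Hoxb4 and 0.309 for Hoxa3. The types share the droplet library and the matching genes, so these are descriptions.

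**Figure D5:**
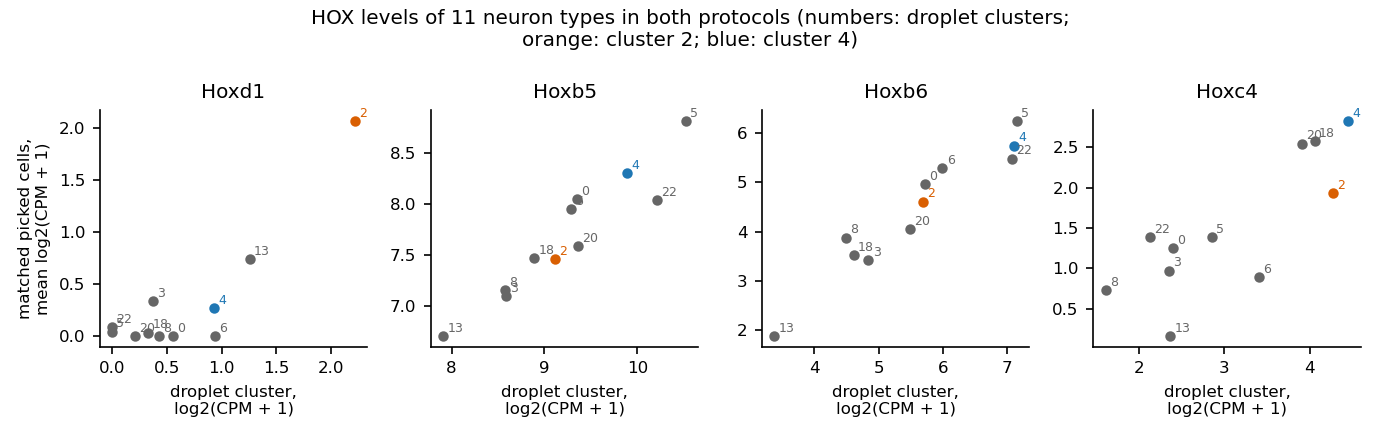
Mean log2(CPM + 1) of picked cells matched to a droplet cluster against log2(CPM + 1) of that cluster, for the 11 clusters with at least 10 matched cells; cluster 2 (orange) takes the largest share of Gast cells and cluster 4 (blue) that of Int cells. Hoxd1 is higher in cluster 2, and Hoxb5 and Hoxb6 are higher in cluster 4, in both protocols. For Hoxd1 the droplet levels rest on 16 UMIs and 4 UMIs, with counting intervals that overlap. The droplet levels of Hoxc4 in the 2 clusters lie within each other's counting intervals.

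Port cells were set against the mean of Gast and Int, so a lower value need not lie below both groups. Mean Hoxd1 was 0.47 in Port, above the Int codes (0.07 in IntD to 0.36 in IntL) and below GastG (1.24) and GastP (1.30). For Hoxd1 edgeR and DESeq2 gave the opposite sign to limma. On summed reads edgeR called 0 members, against 5.9% of genes, and DESeq2 called 2 (Hoxb6 and Hoxc5), against 8.79%. In limma all 8 tested members had lower values in Port mice than the mean of Gast and Int. Of the 8, limma called 0, against 5% of all genes, and 6 had an unadjusted p under 0.05. Hoxb2 came nearest, with 2.47 at the lowest, 3.81 at the median and 4.29 at the highest Port mouse, against medians of 4.38 in Gast and 4.17 in Int mice (difference -0.65, SE 0.20, limma adjusted p = 0.0515). It passed the threshold when any of 6 mice was left out (GastG mouse 41, GastP mouse 44, Port mice 46, 47, 51 and 52), with adjusted p between 0.0201 and 0.178 over all 29 such fits. Hoxb5 had 6.03, 7.65 and 8.10 in Port mice (difference -0.54, SE 0.18, limma adjusted p = 0.0716), and passed without GastP mouse 44 or without Port mouse 47, 51 or 52. Hoxc5, the scarce paralogue of Hoxb5, had 0 to 0.53 in Port mice, 0.22 to 1.10 in Gast mice and 0 to 2.21 in Int mice (difference -0.52, SE 0.17), and passed without IntD mouse 14.

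The lowest Port values were those of 3 of the 8 mice. Port mouse 22 had a Hoxb5 mean of 6.03, mouse 27 of 6.46 and mouse 21 of 6.79, while the other 5 Port mice had 7.64 to 8.10. The same 3 mice were the lowest of the 8 for Hoxb2, Hoxb3, Hoxb4 and Hoxb6. They also had the highest sums of the 6 injury genes of all mice, 7860 CPM in mouse 22, 4177 CPM in mouse 27 and 3319 CPM in mouse 21, against 126.6 to 2844 CPM in the other mice. Without them and GastP mouse 44 the Hoxb5 difference was -0.06 (SE 0.09, limma adjusted p = 0.813), and 0 of the 8 members were called, against 1.08% of genes (2 at an unadjusted p under 0.05). They are also the only Port mice in the comparison numbered up to 39. Among those numbers 4 members, Hoxb2, Hoxb3, Hoxb5 and Hoxb6, were called lower in Port, against 28% of genes, with Hoxb5 at -1.47 (SE 0.13, limma adjusted p = 1.19e-07). Among mice numbered above 39 there were no Int mice, so the contrast has no value there. Injury transcripts, the mouse number and these 3 Port mice cannot be told apart.

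The members were compared next within Gast and within Int. Between GastG and GastP, 0 of the 8 members were called by limma, by edgeR or by DESeq2, against 0% of genes in limma, and 0 of the 8 had an unadjusted p under 0.05. The largest difference was that of Hoxb6, 0.68 (SE 0.40), with 3.92 to 4.87 in 5 GastG mice and 3.61 to 4.32 in 3 GastP mice. Between IntL and the other Int codes 0 members were called by limma, 0 by edgeR and 2 by DESeq2. The shares of all genes called were 5.52%, 8.44% and 10.7% in the same order. In limma 2 members had an unadjusted p under 0.05. These were Hoxc4, with 1.65, 1.43 and 2.72 in the 3 IntL mice and 2.36 to 4.03 in the other 10 (difference -0.88, SE 0.31, limma adjusted p = 0.0956), and Hoxc5 (difference -0.73, SE 0.27, limma adjusted p = 0.116). For Hoxc4, 2 of the 3 IntL mice lay below all other Int mice; IntL mouse 39 did not, and without it 1 member was called. Other lists moved with this contrast too. The 7 satellite glia markers summed to between 2107 and 3167 CPM in IntL mice and between 272.3 and 1360 CPM in the other Int mice, with none at 0 in every mouse. Of them limma called 1 higher (Apoe), and edgeR and DESeq2 each called 5. The 6 injury genes summed to between 786 and 1083 CPM in IntL mice and between 126.6 and 913 CPM in the other Int mice, and Fos and Egr1 were called higher by limma. Their part in the values of Hoxc4 and Hoxc5 was not tested. The IntL mice are numbered 33, 34 and 39 and the other Int mice 11 to 26, so the IntL code and the mouse number cannot be told apart.

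Across the 4 Int codes edgeR called 0 members and DESeq2 called 1, against 9.28% and 16.1% of genes. An F test in limma called 0 members, against 9.85% of genes (2 at an unadjusted p under 0.05). Across all 7 codes it called 6 of the 8, against 22.3% of genes, among them Hoxd1, Hoxb5, Hoxb6, Hoxc4 and Hoxc5, the last with an adjusted p of 0.0474. By mean over mice, Hoxb5 was 7.31 in Port, 7.60 in GastG, 7.45 in GastP, 8.00 in IntL and in IntP, 8.38 in IntM and 8.26 in IntD, and Port had the widest spread of the codes (SD 0.77, n = 8). The ranges of the mice overlapped between GastG, GastP and Port. With the matched type as a term, limma called 0 of the 8 across the codes, against 3.08% of genes (2 at an unadjusted p under 0.05).

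Genes of HOX partner proteins were compared next. Of 9 PBX, MEIS and PKNOX cofactor genes 8 were tested between Gast and Int. Of these, 2 were called higher, against 9.04% of all genes, and 1 lower, against 5.72%. Their median difference was 0.00, against 0.07 over all genes. Pknox2, a TALE homeodomain cofactor, was higher in Gast mice by 1.03 (SE 0.16, limma adjusted p = 4.8e-05), Meis3 by 0.26 (SE 0.08, limma adjusted p = 0.0243), and Pbx3 was lower (-0.74, SE 0.22, limma adjusted p = 0.025). On summed reads edgeR and DESeq2 each called only Pknox2 of these 8, against 14.9% and 17.2% of all genes. The droplet ratio of jugular-like over other neurons was 5.24 for Pknox2 (3.96 to 6.85), 0.469 for Pbx3 (0.355 to 0.609), 1.11 for Meis3 (0.924 to 1.33) and 5.30 for Meis2 (4.26 to 6.53).

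Among the regulators of the clusters, 3 of 9 upstream factors were tested between Gast and Int and 1, Zfp703, was called higher (difference 0.72, SE 0.16, limma adjusted p = 0.00266). Of the 6 retinoic acid receptor genes, all tested, 1 was called higher, Rarg (difference 0.59, SE 0.19, limma adjusted p = 0.0354), and none lower. Over all genes limma called 9.04% higher and 14.8% in either direction. Of 22 Polycomb and trithorax genes, which keep HOX clusters shut or open, 21 were tested. Between Gast and Int limma called 0 of them (2 at an unadjusted p under 0.05). On summed reads edgeR and DESeq2 each called 2, Rnf2 and Ash2l, against 14.9% and 17.2% of all genes. Of 18 noncoding genes within the clusters 13 were matched by symbol in the picked-cell table, where 12 of them, Haglr included, are listed at 0 in every mouse, so they have no value to compare there. In droplet neurons, Hotairm1, a noncoding gene of the Hoxa cluster, had 25.8 CPM in jugular-like and 15.8 CPM in other neurons (ratio 1.64, 1.30 to 2.04). Haglr, transcribed from the Hoxd cluster near Hoxd1, had 58 UMIs in jugular-like neurons and 85 UMIs in other neurons (ratio 12.9, 9.05 to 18.2), and Hoxb5os, antisense to Hoxb5, had a ratio of 0.415 (0.22 to 0.715). Haglr and Hoxb5os had ratios on the same side of 1 as the coding genes beside them.

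Within single cells, Hoxb5 and Hoxb6 were the most closely correlated pair. Over the picked cells, centred within mouse, their Spearman correlation was 0.747, with a median of 0.756 within the 26 mice of at least 10 cells and a value above 0 in all 26. Over 1087 droplet neurons it was 0.626. The other 9 pairs among Hoxb2, Hoxb3, Hoxb5, Hoxb6 and Hoxc4 had correlations between 0.00691 (Hoxb2 with Hoxc4) and 0.374 (Hoxb2 with Hoxb5) in picked cells. In droplet neurons the other 14 pairs, which include Hoxb4, lay between 0.0369 and 0.301. Counts per cell are small for all members but Hoxb5, and cells share library depth and type, so these correlations are descriptions without a test.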

How the data were processed

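The droplet values are deposited counts: UMIs per gene and barcode from Cell Ranger 2.0.1 on mm10, per the submitters' processing notes. The picked-cell table holds log2 reads per gene, while a label speaks of RPKM; per the file headers and its values it was used as deposited log2 reads, with a floor of -5.64 (0.02 reads) for 0 reads. The aligner and annotation of these reads are not given in the sources used here. Back on the linear scale 94.1% of nonzero values were whole within 1 part in 1000, and 100% of HOX values. Other deposited columns are gene names and barcodes. 1 column without a sample was not used.

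The members, although taken by name, and the gene lists were chosen with earlier results of these data known. Droplet cells with 1000 UMIs and 500 genes were clustered with scanpy 1.11.5 (Leiden resolution 1.5) without HOX and listed genes; Scrublet marked 3 barcodes (0.271%). CPM of summed UMIs has exact 95% Poisson intervals, which cover counting error only. Picked-cell CPM was averaged per mouse as log2(CPM + 1) and fitted over 7 codes in limma 3.58.1 (R 4.3.3, eBayes with trend, called at an adjusted p under 0.05). edgeR 4.0.16 and DESeq2 1.42.0 ran on reads summed per mouse as alternatives, beside other filters, pseudocounts, scalings, thinning and leaving out mice. On simulated mouse values for Gast against Int (12705 genes) the limma step recovered 96 of 100 genes changed by 1 log2 unit. Members were named in full with 10 reads in 20% of picked cells, 100 UMIs in neurons, or a call in any contrast; others by range and count. For each member the 3 highest clusters and the lowest were named. Some items that this rule takes in are not reported here, while the counts and percentages include them.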

Additional observations from a re-analysis of the deposited data

Results flagged for a closer look

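Among 33 groups of 4 to 10 mice examined, 3 held 1 mouse set apart by a gap larger than Dixon's 95% limit, where chance gives about 1 in 20. Hoxd1 in Port mouse 21 averaged 1.292 on the log2(CPM + 1) scale, with the next of 8 Port mice at 0.635. Hoxa4 in IntP mouse 11 averaged 0.6046, with the next of 4 IntP mice at 0.0978. Hoxc4 in IntP mouse 16 averaged 4.027, with the next of 4 at 2.82.

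Some HOX values lie outside the comparisons. In the cells coded na, which no comparison used, Hoxb5 averaged 8.165 in mouse 31, 8.004 in mouse 32, 7.671 in mouse 36 and 8.103 in mouse 37, against 7.04 to 7.84 in Gast mice and 7.86 to 8.50 in Int mice. In the unfiltered droplet matrix, classes of barcodes other than neurons were set against free RNA, by a rule chosen after seeing the data: the lower bound of a member's counting interval had to lie above the upper bound in barcodes with at most 100 UMIs. Only 3 values passed, all in endothelial-like barcodes: Hoxd8 at 83.69 CPM (exact Poisson interval 66.9 to 103.5), Hoxd9 at 77.78 CPM (61.6 to 96.9) and Hoxd4 at 58.09 CPM (44.2 to 74.9). All 3 had 0 UMIs in free RNA, with an exact upper bound of 5.91 CPM, and in the neurons of that matrix they stood at 0.164 CPM (Hoxd8), 0.114 CPM (Hoxd9) and 0.294 CPM (Hoxd4). A UMI of Hoxd8 was found in 45.2% of endothelial-like barcodes. Hoxb4 did not pass in any class: it stood at 144.4 CPM in red blood cell-like, 61.04 CPM in endothelial-like and 42.2 CPM in satellite glia-like barcodes, against 92.9 CPM in free RNA.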

How the results depend on the processing

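Over 65 recomputed values, 51 stayed the same by the rule set for them. For counts the rule was to lie within 1.5 times the reported one. For the correlation of Hoxb5 and Hoxb6 it was a change smaller than its SD over mice. The 5 members called between Gast and Int became 3 with 10 reads required in 20% of cells and 0 with the matched type as a term, and the 6 across all codes became 3 and 0 in the same alternatives. Against the 0 reported, Port gave 2 members with DESeq2, 1 with TMM scaling and 4 in mice numbered up to 39, IntL gave 2 with DESeq2, and the Int codes 1 with DESeq2. The shares of all genes called in these fits were 8.79%, 5.08%, 28%, 10.7% and 16.1% in the same order. The 5 droplet members past 2-fold became 8 after thinning, where the share of all genes was not computed. The 5 members detected in 20% of picked cells became 9 at 1 read, 2 at 100 reads and 1 at 100000 reads a cell. The correlation of Hoxb5 and Hoxb6 was 0.112 as phi at 10 reads, a scale on which nearly every cell has Hoxb5. The other causes were not tested.

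Leaving out each mouse gave 4 to 5 called members between Gast and Int, 0 to 2 for Port, 0 for GastG against GastP, 0 to 1 for IntL and across the Int codes, and 4 to 6 across all codes. Without IntL mouse 39, or without IntD mouse 14, IntL gave 1.

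Signs turned for members that were not called or under the type term. Hoxb3 between Gast and Int was -0.22 in edgeR, -0.23 in DESeq2, -0.047 with TMM and -0.046 with the type term, and -0.13 to 0.10 without single mice. Hoxc5 was 0.0098 in edgeR, 0.011 in DESeq2 and 0.21 with the type term, Hoxc4 0.20 and Hoxd1 -0.019 with it. Hoxd1 in Port was 0.37 in edgeR and 0.40 in DESeq2. The jugular-like ratio of Hoxa4 was 0.651 after thinning.

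No paired analysis was possible because each mouse has 1 target code and the numbers name mice, not pairs. Depth limits detection: with cells thinned to 100000 reads, 0.446% had 10 reads of Hoxb2, against 89.1% at full depth. With 3 mice in some codes the simulated recovery at 1 log2 unit was 62 of 100 genes for GastG against GastP.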
